A study of Mus musculus with 2 samples.

Results

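Claudins and connexins, the membrane proteins that form tight junctions and gap junctions, were described in hair follicles of dnFGFR2-IIIb transgenic and wild-type mice. The 9 genes, Cldn1, Cldn3, Cldn4, Cldn7, Cldn8, Gja1, Gjb2, Gjb5 and Gjb6, were selected by name from the probe annotation, with earlier results of these data known, and they are 5 claudins and 4 connexins of the 18193 named genes on the arrays. Their 20 probe sets, the groups of short probes that each report on a transcript, are all of those annotated to these symbols alone among 45037 non-control probe sets. Because the genes were chosen with their values known, the values below are a description and support nothing beyond themselves.

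The study had 2 samples, each hybridised to a mouse expression array. The transgenic sample came from mice carrying dnFGFR2-IIIb, a transgene named for the IIIb splice form of fibroblast growth factor receptor 2, and the other from mice labelled wild type. Each was total RNA of a pool of about 300 follicles, about 100 from each of 3 mice of separate litters, at postnatal day 10. The sources used here do not give the strain, the sex of the mice or the promoter that drives the transgene. With 1 array per group and pooled mice there is no replicate spread and no test, and in pooled tissue fewer cells of a type and less RNA per cell cannot be told apart.

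Tight junctions seal the space between epithelial cells, and the claudins in them set which ions and solutes pass. Different claudins pair within and between cells, so that the mix of claudins sets the permeability of a layer. Gap junctions are clusters of channels that join the cytoplasm of neighbouring cells, and each channel is built from connexins, whose gene symbols begin with Gj and a letter for the subgroup. Both kinds of junction are found in the layers of the epidermis and hair follicle, where claudins contribute to the skin barrier and connexins pass ions and small metabolites between keratinocytes.

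Several of these genes lie side by side in the genome. Cldn3 and Cldn4 are direct neighbours on chromosome 5, and Gjb2 and Gjb6 lie on chromosome 14 with 1 annotated long noncoding RNA between them. The 250 bases before the annotated start of both neighbouring pairs and of Gja1, which has the most probe sets, are shown from RefSeq on GRCm38.p6, because the members of each pair are set side by side below. Capitals mark matches to the motifs searched. The windows are chr5:134985964-134986213 on the plus strand for Cldn3, chr5:134946935-134947184 on the minus strand for Cldn4, chr14:57104703-57104952 on the minus strand for Gjb2, chr14:57133612-57133861 on the minus strand for Gjb6 and chr10:56377050-56377299 on the plus strand for Gja1.
Cldn3: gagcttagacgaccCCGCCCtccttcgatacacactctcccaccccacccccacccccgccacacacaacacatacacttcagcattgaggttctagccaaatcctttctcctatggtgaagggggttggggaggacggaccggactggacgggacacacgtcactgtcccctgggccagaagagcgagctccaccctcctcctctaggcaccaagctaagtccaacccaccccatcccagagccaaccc
Cldn4: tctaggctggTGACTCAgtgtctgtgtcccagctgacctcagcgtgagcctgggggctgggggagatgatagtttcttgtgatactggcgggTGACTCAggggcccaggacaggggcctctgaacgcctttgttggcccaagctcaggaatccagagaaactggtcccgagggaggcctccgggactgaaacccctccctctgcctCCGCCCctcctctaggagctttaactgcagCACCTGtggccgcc
Gjb2: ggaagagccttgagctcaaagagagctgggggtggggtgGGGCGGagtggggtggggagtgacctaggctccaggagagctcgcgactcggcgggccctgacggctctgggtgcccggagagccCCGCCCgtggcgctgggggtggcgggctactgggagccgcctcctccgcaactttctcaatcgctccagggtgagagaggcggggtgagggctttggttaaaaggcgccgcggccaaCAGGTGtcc
Gjb6: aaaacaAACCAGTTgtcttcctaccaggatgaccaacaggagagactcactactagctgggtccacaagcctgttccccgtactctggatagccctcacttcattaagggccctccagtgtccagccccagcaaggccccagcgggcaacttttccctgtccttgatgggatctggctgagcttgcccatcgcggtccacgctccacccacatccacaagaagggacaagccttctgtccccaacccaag
Gja1: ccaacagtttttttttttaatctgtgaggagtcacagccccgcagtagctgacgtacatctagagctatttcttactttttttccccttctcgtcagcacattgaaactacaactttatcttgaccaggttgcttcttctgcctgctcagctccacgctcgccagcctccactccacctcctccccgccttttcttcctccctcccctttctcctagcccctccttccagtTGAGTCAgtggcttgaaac

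The promoter table held 8 of the 9 genes, with 9 start sites in all, and no window is shown for Cldn8. Both strands were searched for 6 motifs, and no matches overlapped. The AP-1 motif TGANTCA, which is bound by Fos and Jun proteins, occurred in Cldn4 at 240 and 158 bases before the start and in Gja1 at 19 bases before it, and 6.75% of the 32851 windows in the table hold it. In the windows shown, the Sp1 motif GGGCGG occurred in Cldn3 at 236, in Cldn4 at 44 and in Gjb2 at 211 and 126 bases before the start, against 32.7% of all windows. Of these windows, the E-box CAGGTG, a motif bound by Snail-type repressors, occurred in Cldn4 at 14 and in Gjb2 at 9 bases before the start, against 17.2% of windows. The Grainyhead-like motif AACCNGTT occurred in Gjb6 at 244 bases before the start, against 1.79% of windows. The remaining motifs were TATAAA, held by 12.4% of windows, and CCAAT, held by 33.85%, and among the 8 genes both occurred in Gjb5 alone. Base composition also differed, with 69.2% G and C in the Gjb2 window and 56.8% in that of Gjb6, within a range of 50% to 69.2% over the 9 windows. These matches describe the letters only, and binding was not measured.

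Signals are linear intensities in arbitrary units, with both arrays set to an equal trimmed mean. Values under a floor of 10.6, the 40th percentile of both arrays, were set to the floor for ratios. Probe sets differ in how brightly they read a transcript, so each was compared between arrays and not with other probe sets. A gene was represented by its brightest probe set and counted as different when both signals exceeded the floor and lay at least 2-fold apart. Among control probe sets with no mouse target, the brightest read 15.9 in transgenic and 8.54 in wild-type follicles, so that signals of about this size are near background. The SD among the log2 ratios of a gene's own probe sets, a technical yardstick that leaves out differences between mice, was 0.51 in the dim tertile of signals, 0.37 in the middle tertile and 0.28 in the bright tertile.

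Cldn8 differed most among the 9 genes, and it read higher in transgenic follicles. The protein is known from the kidney, where it forms part of the paracellular barrier of the distal nephron and works together with the Cldn4 protein. Its single probe set, 1449091_at, read 160.0 in transgenic and 65.5 in wild-type follicles, a 2.44-fold difference with a log2 ratio of 1.29. Both signals were far above the floor, and the log2 ratio exceeded the technical SD of 0.37 for signals of this size. No further probe set of Cldn8 was annotated, so that this value has no second reading.

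Cldn8 was the 1 gene of the 9 past 2-fold, higher, and 0 were 2-fold lower. Of the 11565 genes whose signals both exceeded the floor, 1.6% passed 2-fold higher, 1.58% passed 2-fold lower and 3.18% passed either way. Most of the 368 genes past 2-fold were dim, and 73 of them exceeded a signal of 100 on the brighter array, as 8 of the 9 genes did. Of the 6770 genes that bright, 0.355% passed 2-fold higher, 0.724% lower and 1.08% either way. At 1.5-fold, the shares were 2.41% higher and 3.16% lower, and of the 8 bright members 1 was higher, again Cldn8, and 0 were lower. The count of members rests on a single gene chosen with its value known, and nothing is read from it.

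**Figure D1:**
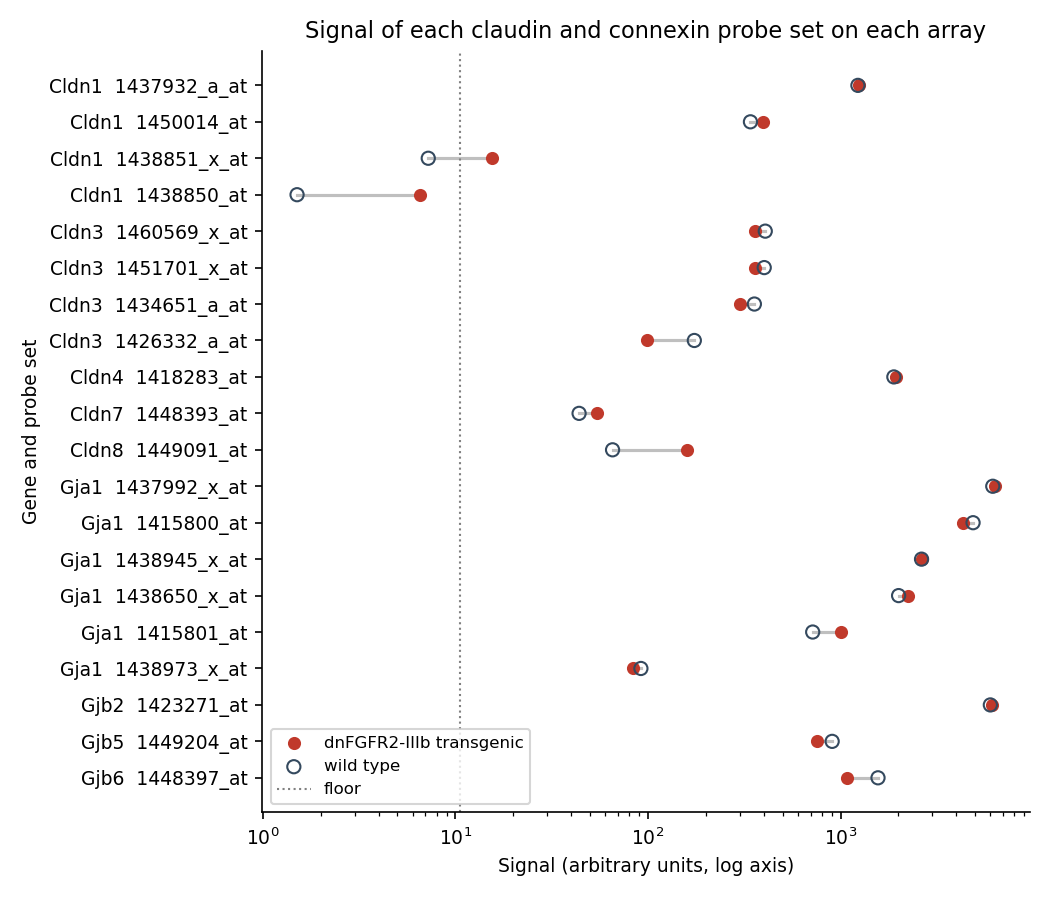
Signal of all 20 probe sets of the 9 genes on a log axis, in arbitrary units, with filled points for the transgenic array, open points for the wild-type array and a dotted line at the floor of 10.6. The points of most probe sets nearly coincide, while those of Cldn8 lie apart, at 160.0 on the transgenic array and 65.5 on the other. The points of the dim Cldn1 probe sets 1438851_x_at and 1438850_at, near or under the floor, also lie apart. Those of Cldn3 at 1426332_a_at do so less, at 98.6 on the transgenic array and 174 on the other.

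Cldn1, Cldn3, Cldn4 and Cldn7 read at most 1.24-fold apart between the arrays at their brightest probe sets. Cldn1 is the claudin whose loss lets newborn mice lose water through the skin. Its brightest probe set, 1437932_a_at, read 1247 in transgenic and 1231 in wild-type follicles, a log2 ratio of 0.02, and 1450014_at read 397 in transgenic and 341 in wild-type follicles, a log2 ratio of 0.22. Of the dim Cldn1 probe sets, 1438851_x_at read 15.6 in transgenic and 7.24 in wild-type follicles, and 1438850_at lay under the floor on both arrays. Both of these dim readings are near background.

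Cldn4, a claudin of differentiated epithelial cells, gave near-equal signals. Its probe set 1418283_at read 1948 in transgenic and 1892 in wild-type follicles, a log2 ratio of 0.04. Its neighbour Cldn3, a sealing claudin of many simple and glandular epithelia, read lower on the transgenic array at all 4 of its probe sets. The brightest, 1460569_x_at, read 358 in transgenic and 407 in wild-type follicles, a log2 ratio of -0.18. The next, 1451701_x_at, read 361 in transgenic and 402 in wild-type follicles, and 1434651_a_at read 301 in transgenic and 357 in wild-type follicles. These 3 differ by at most 1.19-fold, with log2 ratios within the technical SD of 0.28.

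The dimmest Cldn3 probe set stood apart from the others. At 1426332_a_at the signal was 98.6 in transgenic and 174 in wild-type follicles, 1.77-fold lower, with a log2 ratio of -0.82 beyond the technical SD of 0.37. Over the 4 probe sets the log2 ratio had a mean of -0.35 and an SD of 0.32, which is a spread between probes and not between animals. Which of these readings follows the Cldn3 transcript best was not tested.

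Cldn7, a claudin that binds the adhesion protein Epcam, read 54.5 in transgenic and 43.9 in wild-type follicles at 1448393_at, its single probe set. The log2 ratio of 0.31 is within the technical SD of 0.37. Both Cldn7 signals were well above those of the control probe sets.

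At the brightest probe sets of the connexins, Gja1 and Gjb2 gave near-equal signals and Gjb6 and Gjb5 read lower in transgenic follicles, all by under 2-fold. Gjb6 is a connexin of differentiating epidermis and inner ear, and in humans its mutations cause an ectodermal dysplasia with sparse hair. Its single probe set, 1448397_at, read 1075 in transgenic and 1566 in wild-type follicles, 1.46-fold lower, with a log2 ratio of -0.54. This is the largest difference among the 4 connexins at their brightest probe sets and exceeds the technical SD of 0.28. Gjb5, a connexin of stratified epithelium, read 755 in transgenic and 905 in wild-type follicles at 1449204_at, a log2 ratio of -0.26 that is within that SD.

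Gjb2, whose human mutations cause deafness and skin disease, lies beside Gjb6 but did not share its reading. Its single probe set, 1423271_at, read 6096 in transgenic and 5998 in wild-type follicles, a log2 ratio of 0.02. Whether ratios are compressed at signals this bright was not tested. The array maxima were 14888 in transgenic and 14034 in wild-type follicles.

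Gja1, the most widely expressed connexin of the skin, had 6 probe sets, and all exceeded the floor on both arrays. The brightest, 1437992_x_at, read 6330 in transgenic and 6173 in wild-type follicles, a log2 ratio of 0.04. At 1415800_at the signals were 4301 in transgenic and 4878 in wild-type follicles, and at 1415801_at they were 1009 in transgenic and 717 in wild-type follicles. These 2 probe sets have log2 ratios of opposite sign, -0.18 and 0.49. The ratio at 1415801_at exceeds the technical SD of 0.28, and that at 1415800_at is within it. The log2 ratios of the other Gja1 probe sets were 0.01 for 1438945_x_at, 0.16 for 1438650_x_at and -0.13 for 1438973_x_at. Over all 6, 4 ratios lay above 1 and 2 under 1, with a mean log2 ratio of 0.06 and an SD of 0.24.

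At the brightest probe sets, 6 of the 9 genes had a ratio above 1 and 3 under 1, and 6 lay within 1.2-fold. The median log2 ratio of the 9 was 0.02, against -0.00033 for all genes above the floor on both arrays.

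**Figure D2:**
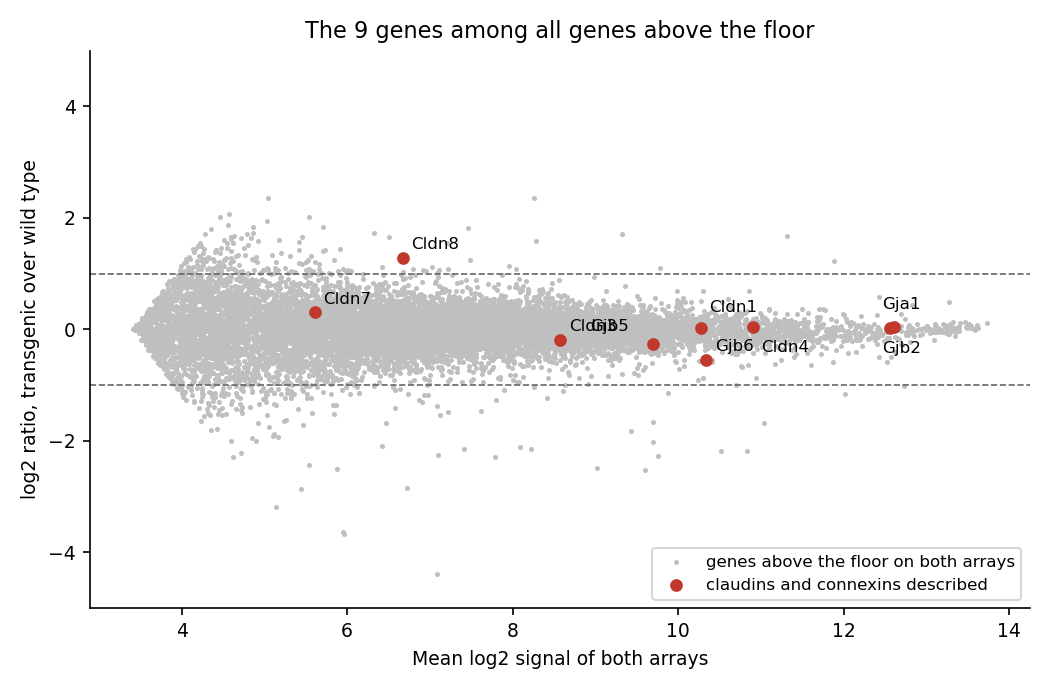
Log2 ratio, transgenic over wild type, against the mean log2 signal for all genes above the floor on both arrays (grey) and the 9 claudins and connexins (red), with dashed lines at 2-fold. Cldn8 lies above the upper line at 1.29, the other 8 lie between the lines, and 1 gene falls beyond the plotted range.

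The signs of the small differences depended on how the arrays were scaled. Setting equal medians in place of trimmed means gave all genes a median log2 ratio of -0.14, and setting equal spiked controls one of 0.19. With equal medians Cldn1, Cldn4, Gja1 and Gjb2 had log2 ratios under 0 at their brightest probe sets, and with equal spiked controls Cldn3 had one of 0.0097, so that 5 of the 9 genes changed sign. Cldn7, Cldn8, Gjb5 and Gjb6 kept their sign under all scalings and floors tried. The log2 ratio of Cldn8 ranged from 1.15 to 1.48 and that of Gjb6 from -0.69 to -0.35. Over all genes, 185 were 2-fold higher and 183 lower, against 115 and 296 with equal medians, 140 and 230 with quantile normalization, 131 and 240 with an intensity-dependent loess, and 314 and 103 with equal spiked controls.

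**Figure D3:**
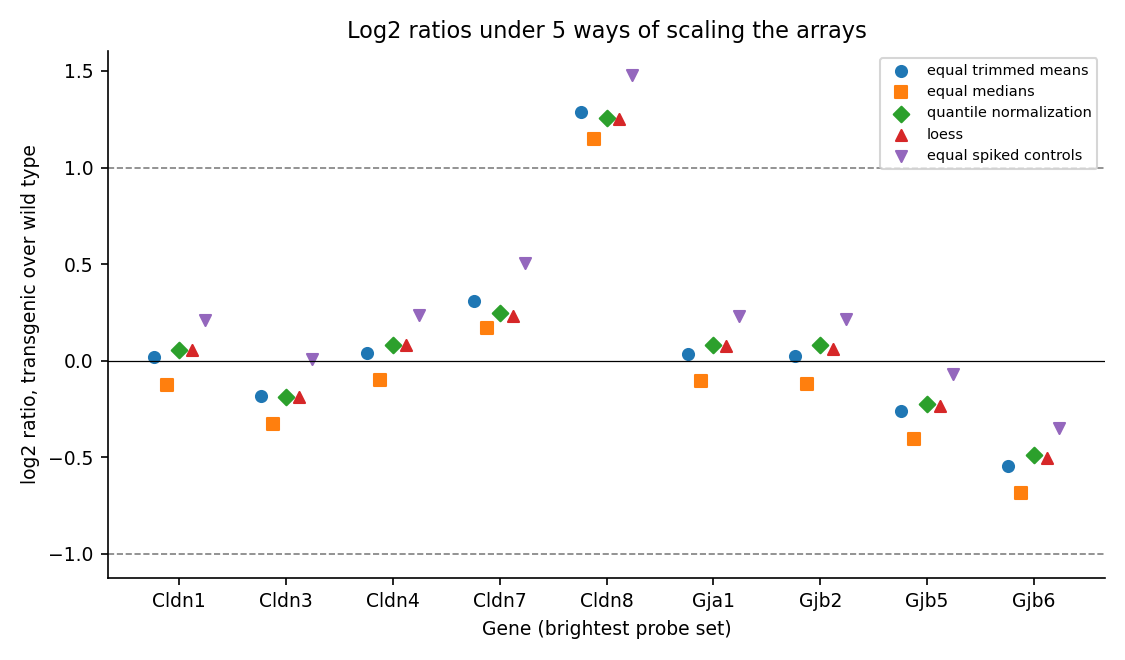
Log2 ratio, transgenic over wild type, of each of the 9 genes at its brightest probe set under 5 ways of scaling the arrays, with dashed lines at 2-fold. Cldn8 stays above the upper line, from 1.15 to 1.48, and the 4 genes near 0 with equal trimmed means fall under 0 with equal medians.

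The wider families held 1 further gene past 2-fold. Of 39 claudin, connexin and pannexin genes that the annotation named, 22 exceeded the floor on both arrays, 6 on 1 array and 11 on neither. Cldn23, a claudin of epithelial barriers, read 47.5 in transgenic and 105 in wild-type follicles, a log2 ratio of -1.15 in the opposite direction to Cldn8. With equal spiked controls its log2 ratio was -0.96, and so under 2-fold.

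The other claudins with signals above background differed by under 2-fold. Cldn12, which lacks the usual binding motif for junction scaffold proteins, read 1029 in transgenic and 1182 in wild-type follicles. Cldn10, a claudin of ion-selective channels in gland and kidney, read 245 in transgenic and 204 in wild-type follicles. Cldn14, named in hereditary deafness of humans, read 102 in transgenic and 77.3 in wild-type follicles. Cldn5, the claudin of endothelium, read 27.5 in transgenic and 41.6 in wild-type follicles, a log2 ratio of -0.60 beside a technical SD of 0.51 for dim signals. Of 7 endothelial markers, Pecam1 was under the floor on both arrays, 4 had a ratio under 1 and 2 above 1, and the log2 ratio of the summed signal was 0.02. Cdh5 had a log2 ratio of 1.63, Tie1 -0.85, Kdr 0.49, Eng -0.35, Tek -0.17 and Emcn -0.07. Kdr read 14.9 in transgenic follicles, with its wild-type signal under the floor. Emcn read 11.1 in wild-type follicles, with its transgenic signal under the floor, and both genes were near background. Cdh5, the 1 endothelial marker past 2-fold, read 42.5 in transgenic and 13.8 in wild-type follicles, 3.09-fold higher. Its wild-type signal was near background. Tie1 read 19.7 in wild-type follicles, and its transgenic signal lay just above the floor, near background. The part of endothelial RNA in the Cldn5 reading was not tested. Cldn22 and Cldn13 were close to background, with log2 ratios of 0.70 and 0.40.

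Of 22 claudins measured, 17 exceeded the floor on at least 1 array, and 12 of these had a ratio above 1 and 5 under 1. Their median log2 ratio was 0.27, but 0.03 with a floor at the 60th percentile, 0.04 with a floor of 50, 0.15 with equal medians and 0.41 with equal spiked controls, and 5 of the 17 exceeded the floor on 1 array alone.

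The further connexins also differed by under 2-fold. Gja3, best known from the lens, read 590.4 in transgenic and 557 in wild-type follicles, with a log2 ratio of 0.08 and one of 0.35 at a second probe set. Gja4, a connexin of blood vessels, read 14.3 in transgenic and 20.3 in wild-type follicles, near background. Gjd2, a neuronal connexin, was near background with a log2 ratio of 0.36, and Gjc1 read 13.8 in both. Panx1, a pannexin that forms channels in single membranes, read 223 in transgenic and 235 in wild-type follicles, and Panx3 read 22.1 in transgenic and 27.6 in wild-type follicles. Of 9 connexins above the floor on at least 1 array, 4 had a ratio above 1 and 5 under 1, and none was 2-fold apart.

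Genes above the floor on 1 array alone stayed near background. They were Cldn2, Cldn15, Cldn18 and Cldn34c1 on the transgenic array and Cldn19 and Gje1 on the wild-type array, and the brightest, Cldn18, read 17.9.

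**Figure D4:**
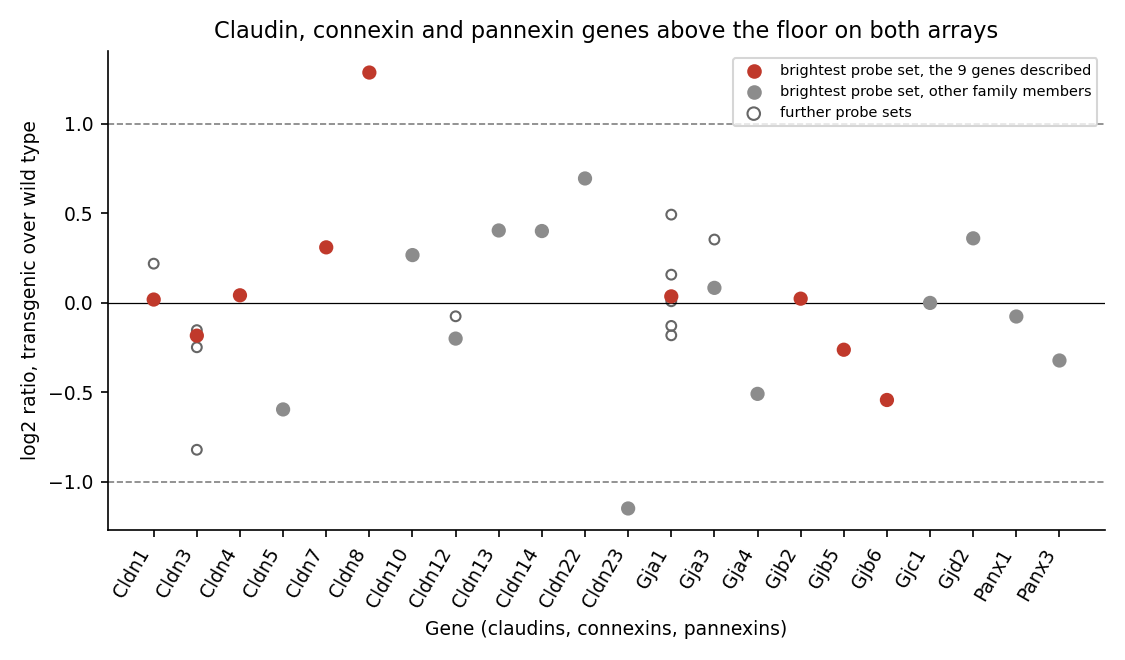
Log2 ratio, transgenic over wild type, of the 22 claudin, connexin and pannexin genes above the floor on both arrays, with filled points for each gene's brightest probe set, open points for further probe sets and dashed lines at 2-fold. Cldn8 lies above the upper line at 1.29 and Cldn23 under the lower line at -1.15.

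Other membrane proteins of the tight junction showed no 2-fold difference. Of 11 genes above the floor, 4 had a ratio above 1 and 7 under 1, with a median log2 ratio of -0.05 that became -0.19 with equal medians, 0.15 with equal spiked controls and 0.13 with the mean over probe sets. Ocln, which encodes occludin, read 260 in transgenic and 265 in wild-type follicles, with a log2 ratio of 0.28 at a second probe set. The dim adhesion genes Jam2 and Jam3 had log2 ratios of -0.92 and 0.86, Ildr1, a protein of junctions where 3 cells meet, -0.43, and Marveld3, a relative of occludin, -0.32. Jam3 gave 0.06 at a second probe set, and Jam2 gave -0.50.

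Among plaque and polarity proteins, some of which anchor the junction to the cytoskeleton, 20 of 21 genes exceeded the floor on both arrays and 0 were 2-fold apart. Their median log2 ratio was 0.04, against -0.10 with equal medians and 0.23 with equal spiked controls. Tjp1, the scaffold that binds claudins and Gja1, read 612 in transgenic and 541 in wild-type follicles. Cgn, which encodes cingulin, read 52.2 in transgenic and 83.1 in wild-type follicles, a log2 ratio of -0.67. Mpdz, a multidomain scaffold, had a log2 ratio of 0.70 and others from -0.10 to 0.44, and Amot 0.68 and -0.46. Arhgef2, a microtubule-associated exchange factor, was under the floor in transgenic follicles, against 39.9 in wild-type follicles, and had a log2 ratio of -0.94 at a second probe set.

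Partners of the Cldn7 protein and membrane proteases that act at epithelial junctions were above the floor in 5 of 5 genes and 0 were 2-fold apart. Epcam read 709 in transgenic and 722 in wild-type follicles, a log2 ratio of -0.03 beside one of 0.70 at a dimmer probe set. Spint1, an inhibitor of the protease matriptase, read 1295 in transgenic and 878 in wild-type follicles, a log2 ratio of 0.56. St14, which encodes matriptase, and the protease Prss8 had log2 ratios of 0.16 and 0.25, and Spint2 one of 0.04.

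Proteins that bind connexins likewise stayed under 2-fold in 6 of 6 genes. Cav1, a caveolar protein, read 159 in transgenic and 217 in wild-type follicles, a log2 ratio of -0.45. Src, a kinase that phosphorylates Gja1, had log2 ratios of -0.59 and 0.25 at its 2 probe sets, and Nedd4, a ubiquitin ligase of Gja1, 0.18.

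Epithelial transcription factors were above the floor in 11 of 11 genes, and 0 were 2-fold apart. Their median log2 ratio was 0.04, against -0.10 with equal medians, 0.23 with equal spiked controls and 0.21 with the mean over probe sets. At the brightest probe sets, Elf3 and Klf5 had the highest log2 ratios, 0.33 and 0.32, followed by Cebpa with 0.28. Grhl3, a Grainyhead-like factor of the skin barrier, had the lowest, -0.26. Elf3 read 19.7 in transgenic and 15.7 in wild-type follicles, close to background. Further probe sets ranged more widely, with log2 ratios from 0.18 to 0.96 for Grhl2 and from -0.28 to 0.75 for Trp63. The brightest probe sets of these 2 genes gave 0.15 and -0.15.

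Cell type markers also differed between the pools. The hair shaft markers summed to 79393 in transgenic and 77240 in wild-type follicles, with Krt84 the 1 gene of 10 past 2-fold, 21.1-fold lower. Inner root sheath and companion layer markers summed to 66047 in transgenic and 68517 in wild-type follicles, so that both follicle lists were far above the floor on both arrays. Markers of suprabasal interfollicular epidermis summed to 5868 in transgenic and 6291 in wild-type follicles, but 6 of 9 ratios lay above 1 and 3 under 1, with a median log2 ratio of 0.59. Among these genes Krt77 was 3.84-fold higher, although its wild-type signal of 16.7 was close to background. Krt78 exceeded the floor in transgenic follicles alone, and Krt1, Krt2 and Hrnr were under the floor on both arrays. Cnfn and Asprv1, which make up most of both sums, had log2 ratios of -0.33 and -0.09. Markers of stressed or cornifying epidermis, a list written with these values known, were 2-fold lower in 7 of 13 genes (Ivl, Sprr1b, Sprr2h, S100a8, S100a9, Serpinb2 and Stfa2l1) and summed to 17308 in transgenic and 25828 in wild-type follicles. Of 12 ratios on this list, 11 lay under 1 and 1 above 1. Sprr1a, its brightest gene, and Krt6a were near equal, with log2 ratios of 0.04 and -0.02, and Krt16 and Krt17 had -0.55 and -0.45. Outer root sheath and basal layer markers summed to 9843 in transgenic and 11141 in wild-type follicles, with 9 of 10 ratios under 1 and 0 past 2-fold. Secretory epithelium markers summed to 1661 in transgenic and 1701 in wild-type follicles, with Krt19 2.23-fold lower and Foxa1 and Foxi1 under the floor on both. Atp1b1 made up most of both sums, at 1381 in transgenic and 1248 in wild-type follicles. Of 5 secretory epithelium ratios 2 lay above 1 and 3 under 1, with a median log2 ratio of -0.47. Krt8 had a log2 ratio of -0.47 and Krt18 one of -0.77. Sebaceous markers summed to 4072 in transgenic and 4591 in wild-type follicles, with 0 of 7 past 2-fold. Dermal papilla and fibroblast markers summed to 3117 in transgenic and 2279 in wild-type follicles, with 1 of 11, Rspo3, past 2-fold and higher. Rspo3 read 14.8 in wild-type follicles, close to background. Dcn, the brightest gene of this list, read 1597 in transgenic and 990 in wild-type follicles. Of 10 ratios 7 lay above 1 and 3 under 1, with a median log2 ratio of 0.19. Alpl had a log2 ratio of -0.76, and Sox2 was under the floor on both arrays. The 11 immune markers on the arrays, signals under the floor included, summed to 223 in transgenic and 112 in wild-type follicles. Of those above the floor on at least 1 array, 7 of 7 ratios lay above 1, and Cd74 was past 2-fold. Of these 7 genes, 3 exceeded the floor on both arrays. H2-Aa, H2-Eb1, C1qa and C1qb exceeded it in transgenic follicles alone, where H2-Eb1, C1qa and C1qb read 18.1, 20.8 and 17.6, close to background. Cd74 read 11.3 in wild-type follicles, just above the floor. H2-Ab1 had a log2 ratio of 0.02, and its further probe sets had -0.40 and -0.26. Ptprc, Cd207, Cd3e and Cd79a were under the floor on both arrays. Adipocyte markers summed to 5257 in transgenic and 7416 in wild-type follicles, with Fabp4 most of both sums at 5133 in transgenic and 7246 in wild-type follicles. Of 5 adipocyte ratios 3 lay above 1 and 2 under 1, with a median log2 ratio of 0.05, Adipoq 2.13-fold lower and Lep above the floor in transgenic follicles alone. Schwann cell markers summed to 170 in transgenic and 251 in wild-type follicles, with S100b lower by over 2-fold. Melanocyte markers summed to 12989 in transgenic and 14117 in wild-type follicles, and muscle markers to 835 in transgenic and 973 in wild-type follicles, with 0 past 2-fold in either list, although 3 of 4 muscle ratios lay above 1 and Acta1 exceeded the floor in transgenic follicles alone. Their part in the readings of Cldn8, Gjb6 and the other junction genes was not tested.

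The sex-linked RNAs ran alongside every comparison. Xist, expressed from the inactive X chromosome, read 1151 in transgenic and 354 in wild-type follicles, and the Y-linked gene Eif2s3y was under the floor in transgenic follicles, against 192 on the wild-type array. The Y-linked genes Kdm5d and Uty were likewise under the floor in transgenic follicles, against 55.6 and 31.5 in wild-type follicles. Genotype and this difference in sex-linked RNA cannot be told apart here. The ratio of 3' to 5' signal for beta-actin, a measure of RNA integrity, was 2.06 in transgenic and 1.89 in wild-type follicles. Fgfr2 read 370 in transgenic and 198 in wild-type follicles at 1433489_s_at, and whether this probe set reads the transgene is not known here.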

How the data were processed

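The deposited values are 1 linear intensity per probe set, scaled by the authors to a 2% trimmed mean of 100 on each array; this was read from the values, and the sources used here name no summary algorithm. Of 45101 probe sets, 64 controls were left out. In the platform annotation, 34945 probe sets had 1 symbol, 932 several and 9160 none, and 34741 matched a RefSeq gene table (GRCm38.p6). Both arrays were rescaled to equal trimmed means over non-control probe sets, by factors of 1.005 each. With 1 array per group no p-value was computed. Alternatives were other scalings (a loess with a span of 0.3 among them), floors, probe set rules and thresholds. The procedure was tested on simulated data with known folds and noise of the size of the technical SD. That simulation held no differences between mice and so cannot speak to them.

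All members and lists were chosen with earlier results of these data known. Named genes were every probe set of the 9 members, other claudins, connexins and pannexins above the floor, up to 4 genes per further junction list with the largest log2 ratios, and listed genes past 2-fold; marker lists are otherwise given as sums and counts. Sums of marker lists were taken over all listed genes on the arrays, with signals under the floor kept as read. Ocln, Epcam, Fgfr2, Acta1, H2-Aa and some further marker genes were added after their values were seen. Analyses used Python 3.11.15, numpy, pandas and statsmodels 0.14.6.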

Additional observations from a re-analysis of the deposited data

How the results depend on the processing

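The 18 member probe sets above the floor each moved by less than the technical SD in all 9 scalings and floors tried. These are 162 log2 ratios in all, and 5 of the 9 genes still changed sign. Much of this was fixed in advance and says little about robustness. Setting equal medians moved every member log2 ratio by the same amount, and so did setting equal spiked controls. Floors at the 20th and 60th percentile lay under all these signals and moved none of the ratios. Cldn8 was the single member past 2-fold in every setting except the 3-fold threshold, where 0 members passed. The count of all genes past 2-fold, 368, was 1530 with a floor at the 20th percentile, 111 at the 60th percentile, 59 with a floor of 50, 129 with a pseudocount in place of the floor, 1519 at 1.5-fold and 67 at 3-fold. Cldn23 was under 2-fold with equal spiked controls (log2 ratio -0.96) and with the pseudocount (-0.998), and with the floor of 50 its transgenic signal lay under the floor. No paired analysis was possible because each group has 1 array. Signals near 15.9 or less are close to background and limit what can be said of dim genes.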
